A study of Mus musculus with 58 samples.

Results

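The comparison of diabetic with control mouse retina at ZT17, the middle of the night, took 9 of the 58 retinal libraries of a study of the daily transcriptome: 4 diabetic libraries (replicates 1, 3, 4 and 5) and 5 control libraries (replicates 1 to 5), chosen by the genotype and the time in their labels. Diabetic mice were heterozygous Ins2Akita males (C57BL/6-Ins2Akita/J) with sustained hyperglycemia, and controls were littermate males that lacked the phenotype, labelled C57/BL/6. All were 4 months old, lived from birth in a light/dark cycle in which ZT0 is lights on and ZT12 lights off, and were perfused with cold saline. Retinas of the night points were dissected in dim red light. Akita is a dominant point mutation of the insulin gene Ins2 that makes proinsulin misfold in pancreatic beta cells, so the model is a genetic, insulin-deficient diabetes and the allele is present from birth. Ins2 counts check no label, since the mutation leaves the transcript in place, and Ins2 had 0 to 2 reads in the control libraries and 0 to 6 in the diabetic ones. Nothing in the labels ties a library to a given animal. Unless another fit is named, p-values measure the spread between libraries of a group, estimated over all 58 libraries. The question was which retinal transcripts differ with diabetes at this hour.

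The genes that were lower in diabetic retina at ZT17 included a group of the endoplasmic reticulum (ER). The ER is where secreted and membrane proteins fold, and photoreceptors load it heavily because they continually renew their opsin-rich outer segments. Chaperones such as BiP (Hspa5), GRP94 (Hsp90b1) and calreticulin (Calr) hold unfolded chains, protein disulfide isomerases form and shuffle disulfide bonds, and the ER-associated degradation machinery (Sel1l, Syvn1, Herpud1, Edem1) removes what fails. When unfolded protein builds up, the sensors encoded by Ern1 (IRE1), Eif2ak3 (PERK) and Atf6 set off the unfolded protein response, in which the transcription factors XBP1 and ATF6 raise the chaperone genes, in part through the ER stress element in their promoters.

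Of a list of 23 ER chaperone and unfolded protein response genes, 4 were lower in diabetic retina and 0 were higher. Protein disulfide isomerase Pdia6 fell by 27.4%, the ER stress-inducible Creld2 fell by 32.4%, calreticulin fell by 35.2% and the BiP cofactor Sdf2l1 fell by 46.1%. Among all genes tested, 0.105% passed the same threshold (adjusted p under 0.05, edgeR quasi-likelihood test) in the lower direction. The promoters of the first 3 of these genes are shown because each holds an ER stress element. The lines give bases -250 to -51 relative to the RefSeq transcription start, 5′ to 3′ on the gene's strand, from RefSeq on GRCm38.p6, and the capitals mark the letters CCAAT and CCACG, which the element holds 9 bases apart, or their reverse complements.
Pdia6 (chr12:17266339-17266538, plus strand): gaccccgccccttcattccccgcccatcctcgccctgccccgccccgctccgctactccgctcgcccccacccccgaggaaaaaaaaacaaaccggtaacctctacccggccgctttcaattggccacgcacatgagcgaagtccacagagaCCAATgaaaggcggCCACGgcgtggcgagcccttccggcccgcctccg
Creld2 (chr15:88819396-88819595, plus strand): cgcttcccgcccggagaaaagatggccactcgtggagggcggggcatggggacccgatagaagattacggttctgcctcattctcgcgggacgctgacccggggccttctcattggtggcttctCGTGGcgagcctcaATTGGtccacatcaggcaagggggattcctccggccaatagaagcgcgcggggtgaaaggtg
Calr (chr8:84846982-84847181, minus strand): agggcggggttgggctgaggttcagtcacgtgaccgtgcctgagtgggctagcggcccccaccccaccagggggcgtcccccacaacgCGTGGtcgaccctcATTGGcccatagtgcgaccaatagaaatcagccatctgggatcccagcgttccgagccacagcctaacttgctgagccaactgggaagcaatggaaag
The element lay at bases -98 to -80 in Pdia6 on the gene's own strand, at -126 to -108 in Creld2 and at -162 to -144 in Calr, both on the opposite strand. Searched on both strands in windows of 250 bases before to 50 bases after the start, it was present in 39 of 32851 RefSeq promoters (0.119%). Of the 20 ER list members matched to RefSeq promoters, 8 held it (40%): Calr, Canx, Creld2, Dnajc3, Hsp90b1, Hspa5, Pdia6 and Syvn1. The 25 called genes that matched had 31 promoters, of which 3 (9.68%) held it, and these were the promoters printed. The shorter ER stress element II, ATTGG and CCACG with 1 base between them, was in 0.0365% of all promoters and in those of Dnajb11 and Herpud1. TGACGTGG, the unfolded protein response element, was in 0.676% of all promoters, in 0 of the 20 promoters of the list, and in that of Tnfaip3 among the called genes. The windows of list members with and without the element are a description of letters, and the element was also present in Canx and Syvn1, whose fold changes are given further on.

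Pdia6 spans chr12:17266545-17284770 on the plus strand (GRCm38) and forms and rearranges disulfide bonds in the ER lumen. Its normalized read count, the count divided by the library's DESeq2 size factor, was 917, 1138, 1018, 1054 and 982 in control replicates 1 to 5. In diabetic replicates 1, 3, 4 and 5 it was 751, 779, 737 and 706. Every diabetic library lay below every control library, the log2 fold change was -0.46 ± 0.08 (SE) and the adjusted p was 0.00254. Over all genes tested, 1.05% had all diabetic libraries below all control libraries and 0.921% had all of them above. Where Pdia6 overlaps Atp6v1c2 on the opposite strand, the strand setting of the counting is not given in the sources used here.

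Creld2, at chr15:88819646-88826683, encodes an ER stress-inducible protein with an isomerase-like motif. The control libraries held 308, 286, 339, 307 and 239.5 normalized reads and the diabetic ones 199, 226, 202 and 174, so the groups did not overlap. The log2 fold change was -0.56 ± 0.10 (adjusted p = 0.00254).

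Calr, at chr8:84841850-84846934, encodes the calcium-binding lectin chaperone of newly made glycoproteins. Control libraries held 5866, 5253, 6294, 5755 and 6669 normalized reads. Diabetic libraries held 3503, 4317, 3822 and 3832, all below the lowest control. The log2 fold change was -0.63 ± 0.12 (adjusted p = 0.0082).

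Sdf2l1, at chr16:17130138-17132383, encodes an ER protein that works with BiP and the cochaperone ERdj3 (Dnajb11). Control replicate 1, at 67.1 normalized reads, was far below the other control libraries, which held 112, 103, 107 and 109. The diabetic libraries held 65.2, 65.0, 45.5 and 40, so control replicate 1 lay just above the highest diabetic library. The log2 fold change was -0.89 ± 0.20 (adjusted p = 0.0299). The call was kept in 3 of the 9 edgeR fits that left out 1 ZT17 library and in 13 of 21 alternative settings, with an adjusted p of 0.0156 to 0.278 over those 9 fits, the highest without diabetic replicate 5.

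Pdia5, a further protein disulfide isomerase (chr16:35397312-35490873), was called lower as well but was not on the list. Its 5 control libraries held 654, 548, 607, 652 and 537 normalized reads and its diabetic libraries 449, 473, 466 and 403. The groups did not overlap and the log2 fold change was -0.42 ± 0.08 (adjusted p = 0.0060).

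**Figure D1:**
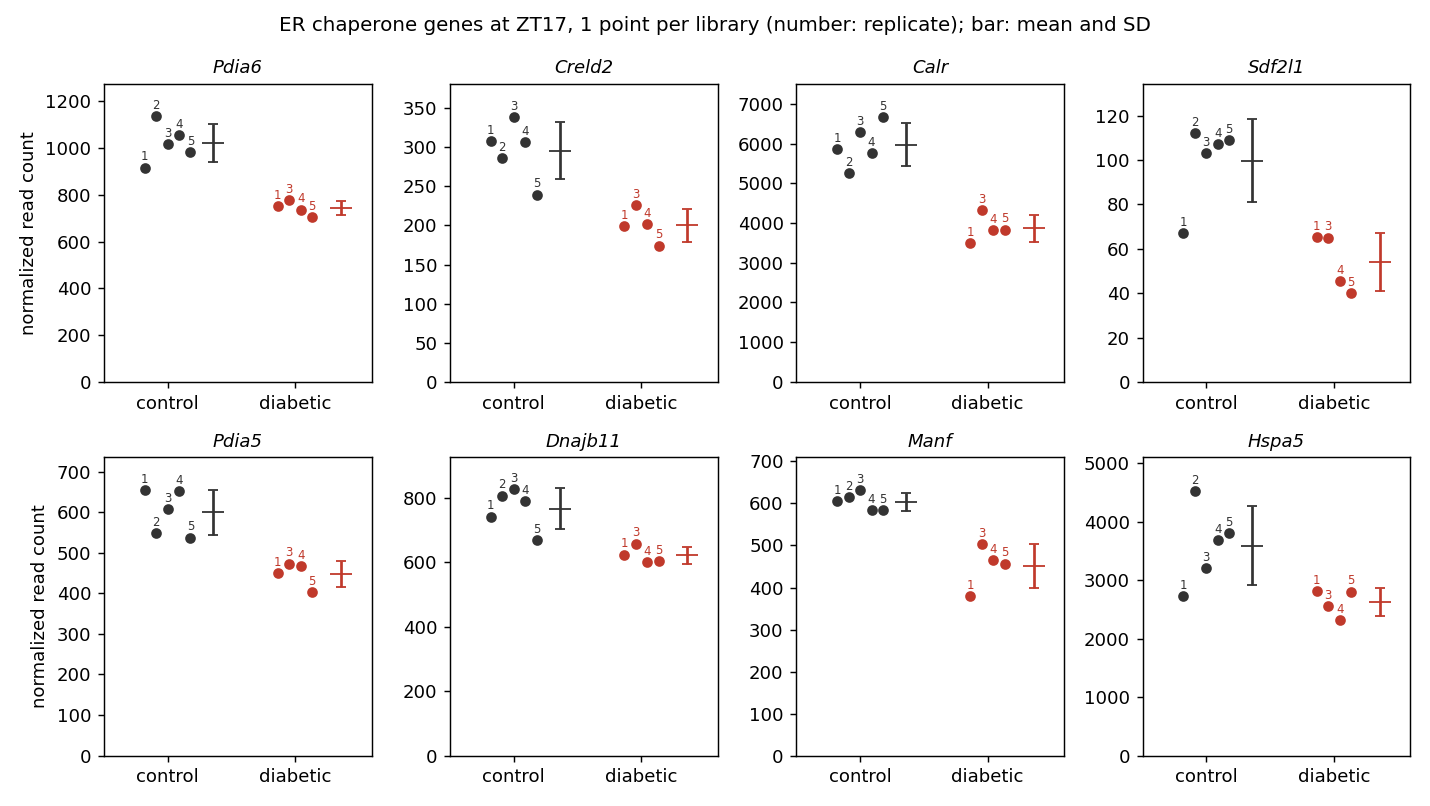
Normalized read count (vertical axis, from 0) of 8 ER genes in each ZT17 library, control in black and diabetic in red, with replicate numbers and, beside the points, the mean and SD. Every diabetic point lies below every control point for all but Hspa5, where control replicate 1 (2724) is below diabetic replicates 1 (2817) and 5 (2805).

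The other members of the list lay near or above the threshold. The folding helper Dnajb11 had control libraries of 669 to 826 and diabetic libraries of 599 to 658 normalized reads, without overlap, and an adjusted p of 0.0508. Manf, an ER stress-inducible secreted neurotrophic factor, held 605, 615, 632, 584 and 583.5 normalized reads in control and 379, 504, 466 and 457 in diabetic libraries (log2 fold change -0.42 ± 0.11, adjusted p = 0.0677). These groups too were separate, and diabetic replicate 1 was the lowest. Hspa5, the central ER chaperone, held 2724, 4524, 3201, 3685 and 3803 in control and 2817, 2553, 2316 and 2805 in diabetic libraries. Its log2 fold change was -0.45 ± 0.12 (adjusted p = 0.0846), with control replicates 1 and 3 the lowest of their group. The degradation factor Sel1l (-0.16 ± 0.04, adjusted p = 0.0858), the response's transcription factor Xbp1 (-0.36 ± 0.10, adjusted p = 0.0969) and the exchange factor Hyou1 (-0.26 ± 0.07, adjusted p = 0.125) followed. Hsp90b1 was at -0.31 ± 0.12 and Pdia3, the isomerase that works with calreticulin, at -0.30 ± 0.10, both overlapping between groups.

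The sensors had fold changes near 0. Ern1 was at 0.08 ± 0.06, Eif2ak3 at 0.08 ± 0.05 and Atf6 at -0.08 ± 0.05 on the log2 scale. Canx, the membrane-bound counterpart of calreticulin, was at -0.06 ± 0.09, P4hb at -0.10 ± 0.08 and Syvn1 at -0.11 ± 0.14. Dnajb9, a cochaperone of BiP, had the highest value of the list (0.25 ± 0.15, adjusted p = 0.682), and Herpud1 was at 0.00 ± 0.10. None of these 8 genes had an adjusted p under 0.05.

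Over the list, all 23 members were tested, 18 had a negative fold change and the median log2 fold change was -0.18, against 0.0069 over all 19120 genes, of which 48% were negative. At an unadjusted p under 0.05, 13 members were lower and 0 higher, where 4.45% of all genes were lower and 4.37% higher. In 7 members all diabetic libraries lay below all control libraries, as in 1.05% of all genes. The list was drawn up with earlier results of these data known, so its counts are a description. Leaving out diabetic replicate 5 left Pdia6 as the 1 called member, leaving out control replicate 1 or diabetic replicate 3 gave 7, and other omissions 3 or 4. On all libraries the called members numbered 7 with the replicate block, 9 with DESeq2, 10 with limma-voom and 11 with GC and length trends removed. With the 9 ZT17 libraries fitted alone no member was called by edgeR (10 had an unadjusted p under 0.05) and 5 were called by DESeq2. The list's median lay between -0.23 and -0.18 in every setting tried.

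**Figure D2:**
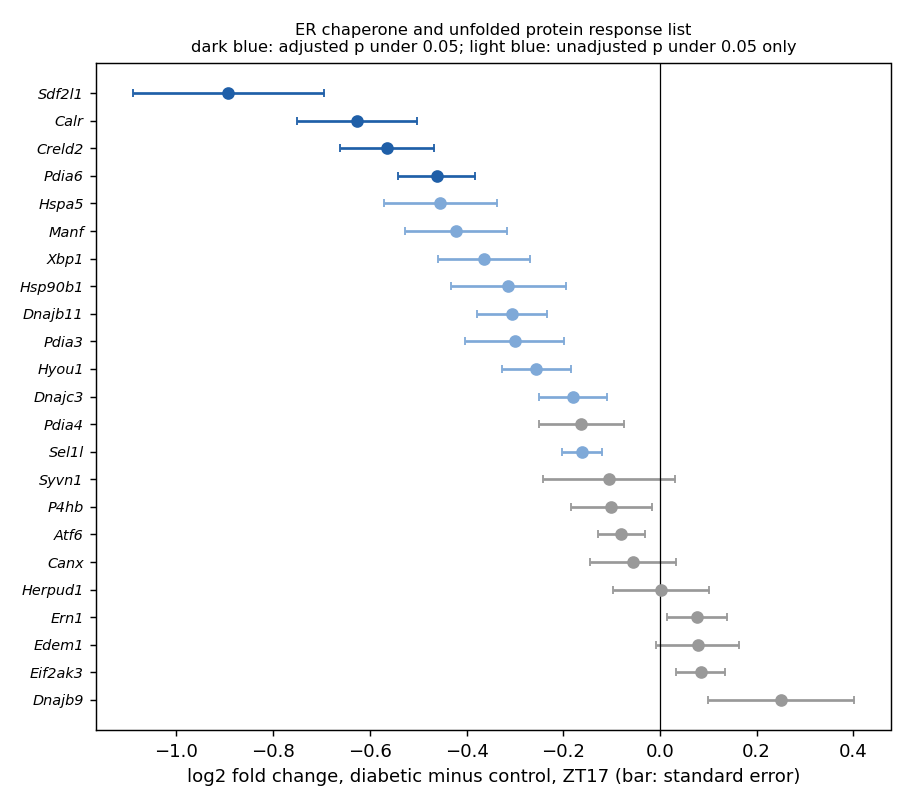
Log2 fold change, diabetic minus control at ZT17 (horizontal axis), of the 23 members of the ER list, with the standard error as bars and the members ordered by value. Sdf2l1 (-0.89), Calr (-0.63), Creld2 (-0.56) and Pdia6 (-0.46) have an adjusted p under 0.05, and 18 of 23 points lie left of 0.

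In the daily course, the control means of these genes were mostly highest at ZT17, and the diabetic means were not. Pdia6 went in control retinas from 742 ± 49.7 (SD, n = 5) normalized reads at ZT13 to 1022 ± 82.5 (n = 5) at ZT17, and in diabetic retinas from 633 ± 76.3 to 743 ± 30.5 (n = 4). Calr went from 3328 ± 381 to 5967 ± 540 in control and from 3209 ± 326 to 3869 ± 336 in diabetic retinas. Creld2 was 203 ± 21.9 at ZT13 and 296 ± 36.6 at ZT17 in control retinas, and 178 ± 5.4 and 200.2 ± 21 in diabetic ones. Of the 23 members, 15 (65.2%) had their highest control mean at ZT17 and 6 (26.1%) their highest diabetic mean, while among all genes tested the shares were 26.3% and 24.8%. These means use the same ZT17 libraries as the comparison itself.

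The list was near its control level at ZT5 and ZT9 (median log2 fold change 0.01 at both), was at -0.08 at ZT13 and -0.10 at ZT21, and at ZT1 was as low as at ZT17 (median -0.17, with 20 of 23 members negative). At ZT1, 13 members were lower at an unadjusted p under 0.05, where 2.42% of all genes were. The difference between ZT17 and the mean of the other 5 time points was tested for each gene in the same fit. No gene passed adjustment (0% of 19120 by edgeR, smallest adjusted p 0.394, 668 genes at an unadjusted p under 0.05; DESeq2 0 genes, limma-voom 1). At an unadjusted p under 0.05, 10 of the 23 members were more negative at ZT17 than at the other hours, where 1.96% of all genes were. Creld2 (log2 difference -0.43 ± 0.11, adjusted p = 0.814) and Calr (-0.44 ± 0.13, adjusted p = 0.991) were among them, so a difference particular to ZT17 was not established for any single one.

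**Figure D3:**
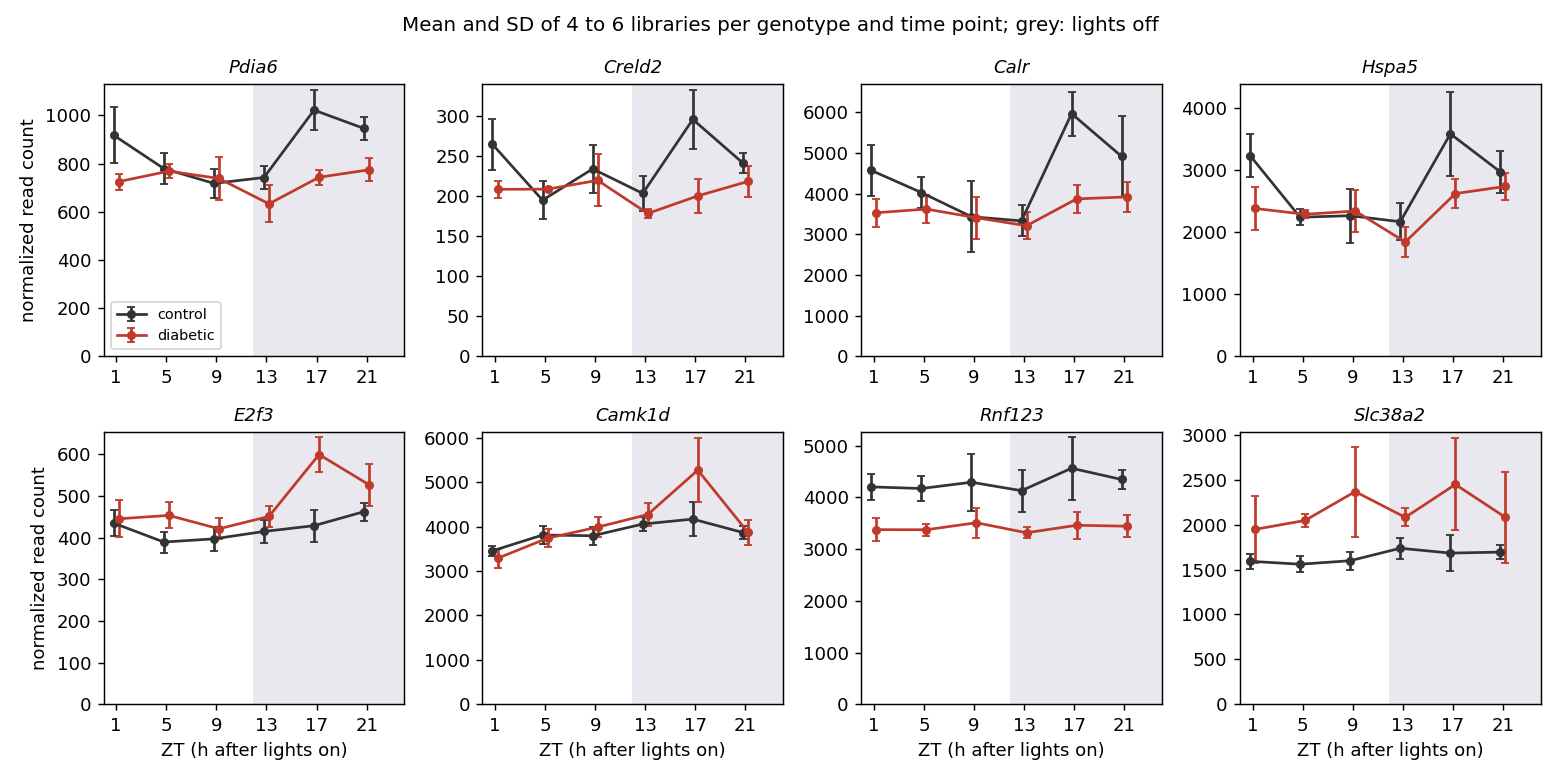
Mean normalized read count with SD (vertical axis, from 0) against ZT in hours for 8 genes, control in black and diabetic in red, with the dark phase in grey. Pdia6, Creld2, Calr and Hspa5 peak at ZT17 in control but not diabetic libraries, where for example Calr is 3869 against 5967, while the means of Rnf123 and Slc38a2 differ in 1 direction at every hour.

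Across all genes, 32 of 19120 (0.167%) were called at ZT17, 12 higher (0.0628%) and 20 lower, and in 24 of the 32 the groups did not overlap, where 0.921% of all genes had every diabetic library above and 1.05% every one below the controls. The number depended on single libraries and was 96 without diabetic replicate 1, 54 without diabetic replicate 3, 15 without diabetic replicate 4 and 3 without diabetic replicate 5. Fitted on the 9 ZT17 libraries alone it was 0 by edgeR (861 genes at an unadjusted p under 0.05) and 21 by DESeq2. Of the 32 calls, only those of E2f3 and Pdia6 were kept in all 9 fits that left out 1 ZT17 library. For 10 genes, among them Creld2, Calr, Camk1d and Selenbp1, the call was lost only without diabetic replicate 5. A further 8 calls were kept in 5 to 7 of the fits and 12 in 1 to 4. These 12 were Csrnp1 (1 fit), Lipg and Gm16262 (2 fits each), Sdf2l1, Nfkbia, Tnfaip3, Slc38a2, Grk3, Lrp4 and CT025566.1 (3 fits each), and Nxnl1 and Fndc1 (4 fits each).

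**Figure D4:**
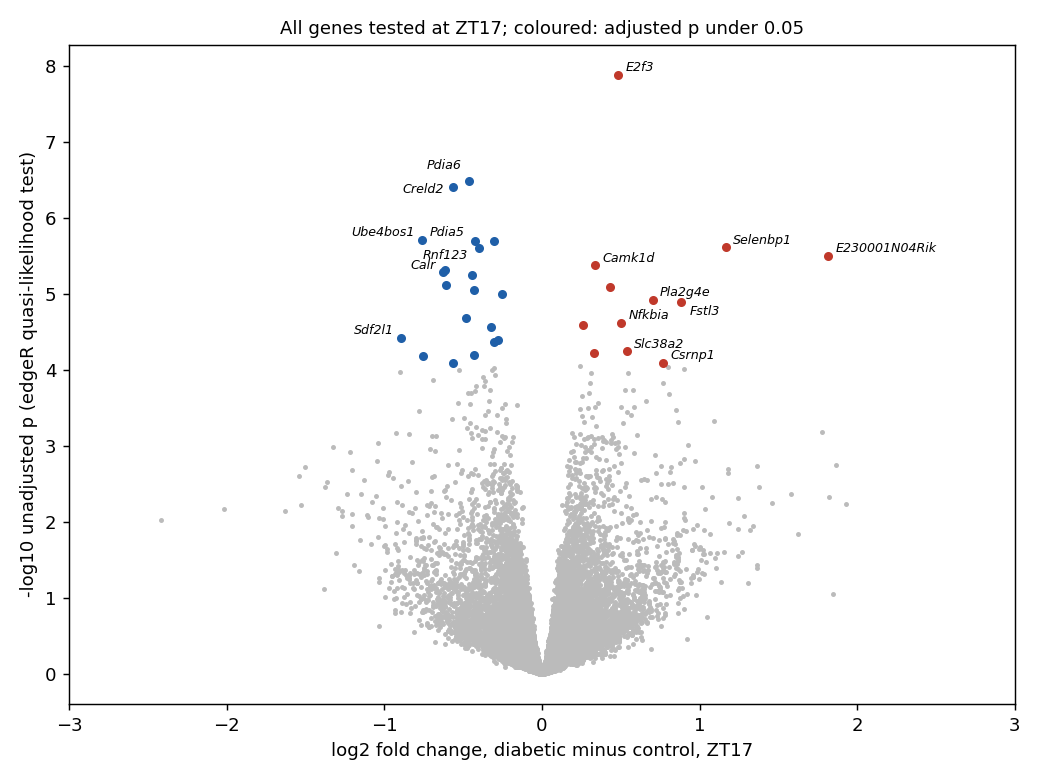
Unadjusted p as -log10 (vertical axis) against log2 fold change, diabetic minus control at ZT17 (horizontal axis), for each gene tested, with the 12 called higher genes in red and the 20 called lower genes in blue. E2f3 has the smallest p, and 4 genes beyond a log2 fold change of 3 in size fall outside the axis.

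The gene with the smallest p was E2f3, a transcription factor of the E2F family that drives entry into S phase, at chr13:29906575-29986063. Control libraries held 382, 415, 409.6, 467 and 471 normalized reads. Diabetic libraries held 620.1, 559, 573 and 647, all above the highest control. The log2 fold change was 0.48 ± 0.07 (adjusted p = 0.000251), and at the other hours it ran from 0.04 at ZT1 to 0.22 at ZT5. Its difference from those hours was 0.35 ± 0.08 (adjusted p = 0.394), and the 2 genes with the smallest p in that test were E2f3 and Camk1d. Of the 19 tested members of a list of replication histones and cell cycle genes, E2f3 was the only one called, where 0.0628% of all genes were called higher, and the list's median was -0.01. At an unadjusted p under 0.05, 2 members were higher and 3 lower, against 4.37% and 4.45% of all genes. Cdc25a, a phosphatase of cell cycle entry, had 41.6 to 59.2 normalized reads in control and 53.1 to 73.7 in diabetic libraries (0.39 ± 0.11, adjusted p = 0.128).

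Camk1d, a calcium/calmodulin-dependent protein kinase, held 4411, 4549.7, 4273, 3569 and 4035 normalized reads in control and 4288, 5619.5, 5217 and 5953 in diabetic libraries. Diabetic replicate 1 lay within the control range and the other diabetic libraries above it. The log2 fold change was 0.34 ± 0.07 (adjusted p = 0.00805), against -0.06 to 0.08 at the other hours. The same library stood with the controls for Selenbp1, an enzyme that oxidizes methanethiol, with 102, 69.6, 105.5, 79.5 and 81.4 normalized reads in control and 105, 232, 195 and 254 in diabetic libraries. Selenbp1 rose by 1.17 ± 0.22 on the log2 scale (adjusted p = 0.0060), against 0.27 to 0.77 at the other hours, where it was not called. E230001N04Rik, a long intergenic non-coding RNA, had the largest called change, 1.82 ± 0.35 (adjusted p = 0.00675), from 11.5 to 17.6 normalized reads in control to 16.9, 55.6, 73.4 and 70.9 in diabetic libraries. At the other hours its fold change was 0.78 to 1.33 on the log2 scale, with no call. The change at ZT17 exceeded the mean of the other hours by 0.60 ± 0.24 for Selenbp1 and by 0.74 ± 0.40 for E230001N04Rik, and neither difference passed the edgeR test (adjusted p = 1.00 for both).

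Fstl3, a secreted antagonist of activin, held 99.7, 52.8, 81.3, 75.8 and 79.5 normalized reads in control and 95.8, 159, 160.1 and 157 in diabetic libraries, with diabetic replicate 1 again at the control level. It was 0.88 ± 0.18 higher on the log2 scale (adjusted p = 0.013) and between 0.57 and 0.89 higher at the other 5 hours, and the difference of ZT17 from those hours, 0.13 ± 0.20, did not pass the test (adjusted p = 1.00). Lrp4, a receptor of the LDL receptor family, was also called with diabetic replicate 1 inside the control range (934 to 1227 normalized reads in control, 1101, 1449.5, 1315 and 1404 in diabetic libraries).

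**Figure D5:**
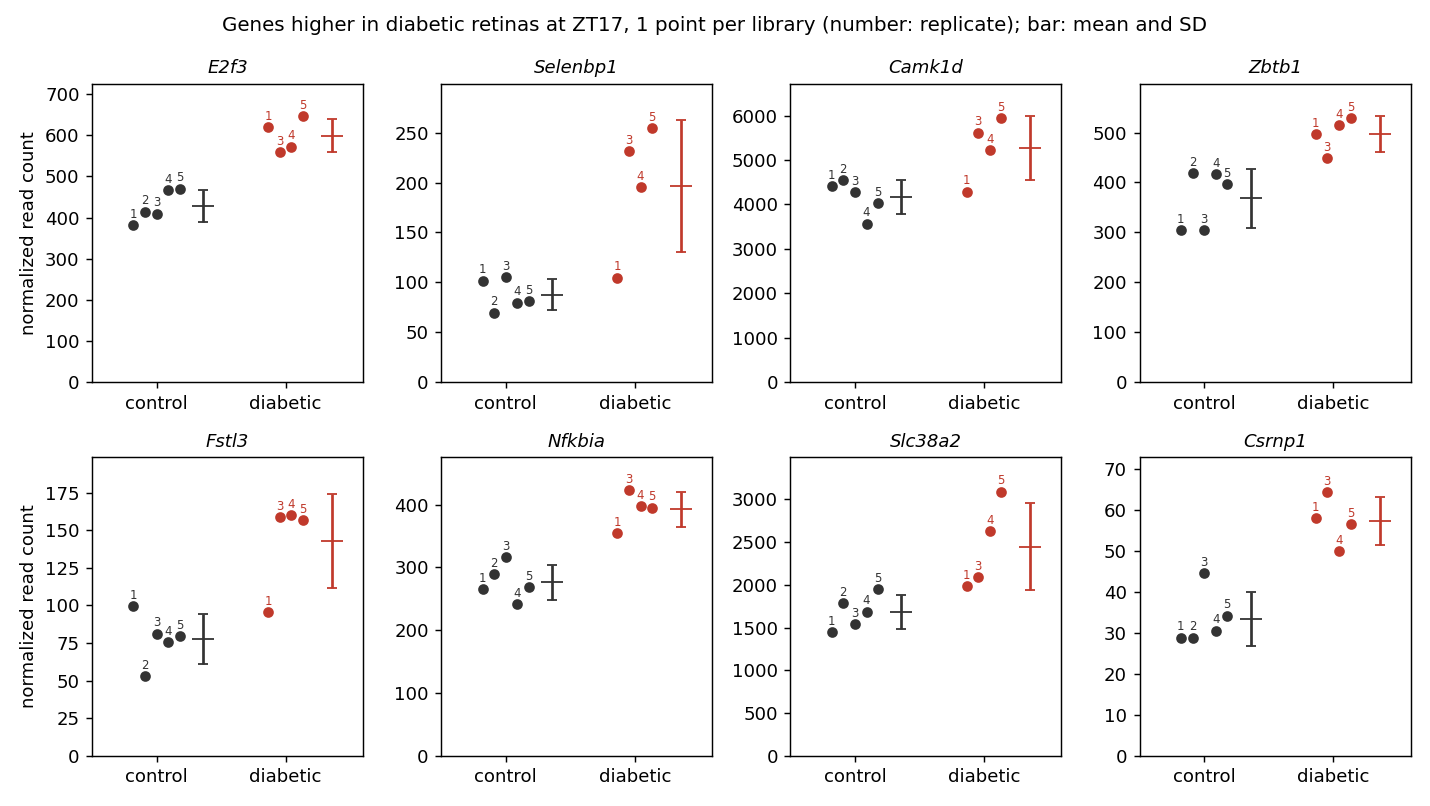
Normalized read count (vertical axis, from 0) of 8 of the 12 genes higher in diabetic retina at ZT17 in each library, control in black and diabetic in red, with replicate numbers, mean and SD. E2f3, Zbtb1, Nfkbia, Slc38a2 and Csrnp1 separate the groups, whereas diabetic replicate 1 lies among the controls for Selenbp1 (105), Camk1d (4288) and Fstl3 (95.8).

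Nfkbia, which encodes the inhibitor that keeps NF-kappa B in the cytosol, held 266, 289, 317, 242 and 269 normalized reads in control and 355, 423, 397 and 395 in diabetic libraries. The groups were apart and the log2 fold change was 0.50 ± 0.11 (adjusted p = 0.0218). Tnfaip3 (A20), which also restrains NF-kappa B, went the other way, from 5953 to 6754 normalized reads in control to 6053, 5377, 4781 and 4792 in diabetic libraries (-0.30 ± 0.07, adjusted p = 0.0317). Slc38a2, the amino acid transporter SNAT2 and a target of the integrated stress response, held 1446, 1791, 1543, 1687 and 1954 normalized reads in control and 1983, 2094, 2626 and 3093 in diabetic libraries. It was higher at ZT17 by 0.54 ± 0.12 (adjusted p = 0.0402) and by 0.27 to 0.56 at the other hours. It was the only called gene among 19 tested members of the integrated stress response list, whose median was 0.08, where 0.0628% of all genes were called higher. At an unadjusted p under 0.05, 2 members were higher and 1 lower, against 4.37% and 4.45% of all genes.

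The remaining higher genes were apart between groups. Zbtb1, a zinc finger transcription factor, had 304 to 419 normalized reads in control and 448 to 529 in diabetic libraries (0.43 ± 0.09, adjusted p = 0.0103). Pla2g4e, a phospholipase of the cytosolic A2 family, had 32.8 to 45.3 and 50.7 to 70.1 (0.70 ± 0.15, adjusted p = 0.0126). Grk3, a kinase that desensitizes G protein-coupled receptors, had 521 to 607 and 638 to 713 (0.26 ± 0.06, adjusted p = 0.022). Csrnp1, a nuclear transcription factor, had 28.8 to 44.6 and 49.9 to 64.3 (0.77 ± 0.18, adjusted p = 0.0487), and it overlaps the microglial gene Cx3cr1 on the same strand. Of the 9 edgeR fits without 1 library, the call of Csrnp1 was kept only in that without control replicate 3, and the adjusted p ran up to 0.171.

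Among the genes lower in diabetic retina, Samd7 and Nxnl1 belong to photoreceptors. Samd7, a Polycomb-associated silencer of photoreceptors, held 2516, 2215, 2740, 2362 and 2352.5 normalized reads in control and 2041, 1920.5, 1624 and 1659 in diabetic libraries. The groups did not overlap and the log2 fold change was -0.43 ± 0.09 (adjusted p = 0.0106), whereas at ZT13 it was 0.27 ± 0.09 (adjusted p = 0.809). At ZT1, ZT5, ZT9 and ZT21 it ran from -0.28 to -0.11. The difference of ZT17 from the other hours, -0.34 ± 0.095, did not pass the edgeR test (adjusted p = 0.956). Nxnl1, which encodes the rod-derived cone viability factor, was at 3156 to 3732 in control and 3307, 2858, 2494 and 2507 in diabetic libraries, with diabetic replicate 1 among the controls (-0.32 ± 0.07, adjusted p = 0.0229). Fndc1, with a fibronectin type III domain, fell by 0.48 on the log2 scale (adjusted p = 0.0198) and was lower at every hour, by 0.25 at ZT1 to 0.65 at ZT5. It was also called by edgeR at ZT5 (adjusted p = 0.000128).

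Rnf123, the ubiquitin ligase subunit that acts on the cell cycle inhibitor p27, held 4988, 4388, 5387, 3979.8 and 4073 normalized reads in control and 3477, 3799, 3163 and 3400.5 in diabetic libraries (-0.40 ± 0.08, adjusted p = 0.0060). The groups were separate at ZT17, and the differences at the other hours ran from -0.34 to -0.29. Its difference from the other hours was -0.09 ± 0.08 (adjusted p = 1.00). Rnf123 overlaps Amigo3, Gmppb and Mst1 on the opposite strand, so its reads may be shared with them. Mcm3ap, a factor of mRNA export, held 987 to 1214 in control and 799.9 to 956 in diabetic libraries, a fall of 0.30 at ZT17 (adjusted p = 0.0060) against -0.14 to 0.00 at the other hours, and its difference from them did not pass (adjusted p = 0.793). Wdr66, a protein of motile cilia, was lower by 0.44 and Fam160a1, of the FTS-Hook complexes that link to dynein, by 0.25 on the log2 scale, without overlap of the groups. Fam160a1 was also called by edgeR at ZT1 (-0.26, adjusted p = 0.0277) and at ZT5 (-0.28, adjusted p = 0.0035).

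Antisense transcripts were also among the lower genes. Ube4bos1, opposite Ube4b, held 340.5, 355, 281, 413 and 306 normalized reads in control and 160.3, 197.5, 257 and 185 in diabetic libraries (-0.76 ± 0.14, adjusted p = 0.0060). Pitpnm2os2, opposite Pitpnm2, had 1013 to 1481 in control and 734 to 1016 in diabetic libraries (-0.61 ± 0.12, adjusted p = 0.0103), and AC123069.1, not matched to the annotation, had 346 to 469 and 229 to 295. With the strand setting of the counting not given, reads of an antisense gene and its partner cannot be told apart. Gpr89, CT025566.1, Gm16262 (opposite Slc9a9), Lipg (the endothelial lipase) and Tnfaip3 completed the 20, and these 5 were named after their values were seen. Lipg held 93.4 to 102.6 normalized reads in control and 74.9, 77.6, 58.8 and 53.6 in diabetic libraries (adjusted p = 0.0487). Its call was kept in 2 of the 9 edgeR fits without 1 library and in 7 of 21 alternative settings, and the adjusted p ran up to 0.363 without diabetic replicate 5. On the 9 ZT17 libraries alone, its smallest adjusted p by edgeR or DESeq2 was 0.217.

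Of the genes in the lists of light detection and of fuel use 0 were called by edgeR, where 0.167% of all genes were. Of 18 genes of rod and cone phototransduction, 16 had a negative fold change, where 48% of all genes did, and the median was -0.11. In this list 5 genes were lower at an unadjusted p under 0.05, against 4.45% of all genes. Of 13 visual cycle genes 12 were negative (median -0.14, lowest -0.76). Lrat and Rdh5, among the 4 visual cycle genes of smallest p, are also pigment epithelium markers, of which 9 of 11 were negative (median -0.28) at a summed level of 140 to 316 CPM in control and 118 to 223 CPM in diabetic libraries. Gnb3, a transducin subunit of cones and ON bipolar cells, held 4566, 3357, 4181, 3963 and 3663 normalized reads in control and 3097, 3658, 3306 and 3063 in diabetic libraries (-0.27 ± 0.08, adjusted p = 0.131). Of 15 genes of photoresponse shut-off, 9 were negative and 6 positive (median -0.11), and 4 were lower at an unadjusted p under 0.05. Of these, rod arrestin Sag was at -0.26 ± 0.08 (adjusted p = 0.189). Rdh8, the retinol dehydrogenase of outer segments, was at -0.26 ± 0.08 (adjusted p = 0.202). Of 15 genes of ON bipolar signalling, 13 were negative, with Nyx at -0.26 ± 0.08. The summed rod markers were 44200 to 55900 CPM in control and 41200 to 48500 CPM in diabetic libraries, with 9 of 10 markers negative. The 2 highest control sums, 54300 and 55900 CPM, were those of replicates 1 and 3 and the highest diabetic sum that of replicate 3, all of which lay apart on the first principal component. The other libraries held 44200 to 47200 CPM in control and 41200 to 45800 CPM in diabetic retina, with overlap. Without those 3 libraries, 17 of 18 phototransduction genes were negative (median -0.12) and 3 were lower at an unadjusted p under 0.05, against 52.5% and 3.81% of all genes, 9 of 15 shut-off genes (median -0.05) and 10 of 13 visual cycle genes (median -0.12) were negative, and the pigment epithelium markers had 3 of 11 negative and a median of 0.24. In whole retina, fewer cells of a type and less RNA per cell cannot be told apart.

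In glycolysis, 16 of 23 genes were negative (median -0.13). The lactate exporter Slc16a3 had 1108, 1215, 1407, 1123 and 1235 normalized reads in control and 944, 1091.5, 803 and 736 in diabetic libraries, all of them lower, but its adjusted p was 0.194. Ldha was at -0.19 ± 0.08 (adjusted p = 0.382). In the opposite direction, Txnip, a glucose-induced inhibitor of thioredoxin, had 87.5 to 112.1 normalized reads in control and 127.5 to 163 in diabetic libraries without overlap (0.46 ± 0.16, adjusted p = 0.291). Of 21 genes of fatty acid oxidation and PPAR targets 19 were positive (median 0.08). The glucocorticoid targets had a median of 0.12, with Fkbp5, a cochaperone of the glucocorticoid receptor, at 304 to 414 in control and 424 to 619 in diabetic libraries (adjusted p = 0.125). Without the 3 libraries apart on the first principal component, the median was -0.11 in glycolysis, 0.14 in fatty acid oxidation and 0.24 in glucocorticoid targets. The cytosolic chaperone Hsph1 had 863 to 1052 in control and 701 to 805 in diabetic libraries (-0.38 ± 0.11, adjusted p = 0.124), and 15 of 20 heat shock genes were negative.

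Of the 15 clock genes examined in the study 0 were called by edgeR, where 0.167% of all genes were. At an unadjusted p under 0.05, 2 of the 15 were higher, against 4.37% of all genes. Cry1, a repressor of the clock, held 826, 871, 899.7, 861 and 839.6 normalized reads in control and 989.7, 1106, 879 and 992 in diabetic libraries (0.20 ± 0.08, adjusted p = 0.392). Cry2 was at 0.20 ± 0.07 (adjusted p = 0.325). The activator Arntl was at 0.06 ± 0.07, Per2 at 0.09 ± 0.13, Nr1d1 at -0.12 ± 0.15 and Dbp at -0.18 ± 0.12.

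The control libraries held 15656408 to 19929725 counts (median 16276456) and the diabetic ones 18193309 to 20301393, and in all 58 the range was 7773117 to 22147398. Genes with at least 1 read numbered 24513 to 24952 in control and 24964 to 25379 in diabetic libraries, without overlap, and the part of depth in the results was not tested. Control replicate 5 carried lens RNA, with summed lens markers at 2260 CPM against 1.88 to 25.8 CPM in the other 8 libraries, and 5 of the 18 lens markers passed the filter, all with a negative fold change. Without control replicate 5 the ER list had 4 called members and a median of -0.19. Blood markers summed to 0.108 to 1.52 CPM. Control replicates 1 and 3 and diabetic replicate 3 lay apart on the first principal component (36.2% of the variance), had the lowest shares of mitochondrial genome reads (0.675% to 0.998%, against 1.2% to 2.12%), and without all 3 of them 9 genes were called, with 3 of the ER list and a list median of -0.21. The part of these differences between libraries in the other results was not tested.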

How the data were processed

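Total RNA of individual retinas was depleted of ribosomal RNA (KAPA RNA HyperPrep Kit with RiboErase) and sequenced. Raw read counts per gene symbol, deposited by the authors as 1 table of 52459 genes by 58 libraries, were made with STAR 2.7.4a on GRCm38.p5 and HTSeq 0.11.1, and the strand setting is not given in the sources used here. Genes with a median above 4 DESeq2-normalized counts over all samples (19120) were tested in edgeR 4.0.16 (R 4.3.3) with TMM normalization and the quasi-likelihood test, in 1 fit of 12 groups (genotype by time point) over all 58 libraries, with Benjamini-Hochberg adjusted p under 0.05. Contrasts were diabetic minus control at ZT17, and this difference minus its mean at the other 5 hours. Printed levels are counts divided by DESeq2 1.42.0 size factors, and fold changes with SE are edgeR's. The procedure was also run on simulated counts drawn separately for each gene. Apart from library size, those counts held no difference between libraries shared by many genes, so they cannot show how such differences affect the calls. Replicate pairs at ZT17 differed by more than counting noise (chi-square per degree of freedom 9.84 to 51.3 in 16 pairs).

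The rule for naming took up to 15 called genes of the smallest p in each direction and the 5 largest called changes. In each pathway list it took the called members or otherwise the 2 members of smallest p. It also took the 15 clock genes and the 5 genes of smallest p in the second contrast. Values of some of these clock genes and list members are not printed. Other genes, including the rest of the ER list, were named after their values were seen. Members and lists were chosen with earlier results of these data known. Positions come from Gencode M21 (GRCm38), to which 48082 symbols matched. Alternatives were other normalizations, filters and tools (limma 3.58.1 voom), a replicate block, the 9 ZT17 libraries alone, leaving out each library, and, added after seeing the data, trends of GC content and length removed and 3 libraries left out.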

Additional observations from a re-analysis of the deposited data

Results flagged for a closer look

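Of 282 groups of values examined at ZT17, 17 (6.03%) had a single library whose gap to its nearest neighbour, as a share of the group's range, passed Dixon's 95% critical value, a rule that by its construction flags about 1 in 20 groups by chance. In the control group the ER gene Sdf2l1 was low in replicate 1 (67.1 normalized reads), Cys1 low in replicate 2 (230.5), Txnip low in replicate 3 (87.5), Miat high in replicate 3 (383), Pdk4 high in replicate 4 (8.3) and Rbm3 high in replicate 4 (766.9). Control replicate 5 was far above the others for Cryab (5309), Col4a1 (1826) and the summed lens markers (2260 CPM). In the diabetic group Fstl3 (95.8) and Ern1 (785) were low in replicate 1, as were the lens markers (1.88 CPM), and Rdh8 (1259) was high and Rora (6315) low in replicate 3, which also had the highest share of structural small RNAs (8.1%). Diabetic replicate 4 was high for mt-Rnr1 (8225) and diabetic replicate 5 for Fkbp5 (619).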

How the results depend on the processing

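The number of genes called at ZT17, 32 in the main fit, was 60 with the replicate block, 87 with DESeq2 and 92 with limma-voom. With GC and length trends removed it was 182, and each of these 4 sets held all 32. Without the 3 libraries apart on the first principal component it was 9, of which 6 were among the 32. On the 9 ZT17 libraries alone it was 0, with the replicate block 1 (not among the 32), and with DESeq2 21 (17 among the 32). A median above 10 gave 47 and no filter 22. Leaving out 1 library gave between 3 (without diabetic replicate 5, 2 among the 32) and 96 (without diabetic replicate 1, 29 among the 32). The difference between ZT17 and the other hours gave 0 genes in every setting run except limma-voom (1) and without diabetic replicate 1 (1), so between 0 and 1 over the fits that left out 1 library. The cause of these shifts was not tested. Of 2558 values of single genes, called and uncalled, 2275 kept their side of the threshold, 224 lost it, 55 gained it, 4 moved and 0 reversed. Only the 32 called genes, each in 21 settings, could lose a call, so all 224 losses were theirs. Same-numbered libraries deviated from their group means with correlations of -0.22, 0.58, 0.37 and 0.14, so the numbers were not taken as pairs. These depths limit what genes of few reads can show.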

Other observations

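Of the markers of the retina's cell types and its surroundings 0 were called by edgeR, where 0.167% of all genes were. Of 11 tested pigment epithelium markers 9 were negative (median -0.28), but without control replicates 1 and 3 and diabetic replicate 3 the median was 0.24, so the sign turned with these libraries. Microglial markers summed to 44.3 to 52.8 and 38 to 56.4 CPM, and endothelial ones to 391 to 415 and 365 to 445 CPM. Horizontal cell markers were at 134 to 145 CPM in control and 149 to 156 CPM in diabetic libraries, without overlap, and all 5 tested members were positive (median 0.09).

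In the gliosis list, Stat3, a transcription factor of reactive glia, had 981 to 1229 normalized reads in control and 1137, 1374, 1242 and 1416 in diabetic libraries (0.22 ± 0.06, adjusted p = 0.134 by edgeR). Of the 17 tested members of the list, 11 were positive and 6 negative (median 0.04). Stat3 was the 1 member higher at an unadjusted p under 0.05, against 4.37% of all genes, and 0 were lower. The matrix gene Col6a1 was at 285 to 580.3 in control and 573, 721, 937 and 635 in diabetic libraries (0.58 ± 0.15, adjusted p = 0.0867). Of the 18 tested collagen and matrix genes, 10 were positive and 8 negative (median 0.06). Col4a1 was at -0.55 ± 0.26 (adjusted p = 0.539 by edgeR), with control replicate 5 far above the other controls. The endothelial receptor Tie1 was at 49.9 to 59.5 and 27.9 to 54.8 (-0.45 ± 0.16, adjusted p = 0.318).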
